A study of Mus musculus with 2 samples.

Results

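The cells described here were the vehicle-treated J558 tumour cells with the highest transcript levels of 4 proliferation genes. They numbered 748 of the 2992 tumour cells of the vehicle library, which held 4565 cell barcodes, and the series held 11123 barcodes in all. A barcode counted as a tumour cell when it had over 2000 genes, under 15% of its UMIs (unique molecular identifiers, the tags that count single transcripts) in mitochondrial genes, at least 3 UMIs of the tumour antigen gene Trap1a, and no more than 2 UMIs summed over Cd3e, Cd3g, Csf1r, Cdh5 and Col1a1, which mark T cells, macrophages, endothelium and fibroblasts. The score of a cell was its summed UMIs of Top2a, Mki67, Cenpf and Cdk1 per 10000 UMIs, and cells at or above the 75th percentile were taken. Members were thus chosen by the measured UMIs of these 4 genes, which are left out of every result. The remaining 2244 vehicle tumour cells are called the rest.

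J558 is a BALB/c plasma cell tumour line that secretes immunoglobulin, and it was grown under the skin of female BALB/c mice. The study took 1 allograft from a mouse given oral vehicle (0.5% methylcellulose) and 1 from a mouse dosed every day with 60 mg/kg TAK-931, both collected at day 6, and profiled dissociated cells by droplet 3′ single-cell RNA sequencing. TAK-931 inhibits CDC7, the kinase that activates the replicative helicase. Both hosts were immunocompetent, so each tumour also held the mouse's own immune and stromal cells, and the tumour cells of each library came from 1 line in 1 animal.

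A dividing cell copies its DNA in S phase, when helicases open replication origins and histone genes are transcribed to package the new strands. It then passes through G2 into mitosis. Genes for the mitotic kinases, spindle motors and kinetochores are mostly silent in G1, begin to rise during S phase and peak in G2 and mitosis, driven by the MuvB complex with B-MYB and FOXM1. The anaphase-promoting complex ends mitosis by marking cyclins and securin for destruction. Plasma cells, in contrast to most dividing cells, carry a very large load of secretory protein synthesis at the same time.

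The cut lay at 8.61 per 10000 UMIs, the nearest member at 8.614 and the nearest cell outside at 8.613. Within 10% of the cut there were 126 members above and 100 cells below. Members are by construction a range of this score, and whether they form a separate type cannot be read from it. A score of 0 was found in 221 vehicle tumour cells. Among members the median score was 11.6 and the highest 28.7, and each member had at least 7 UMIs of the 4 genes, with a median of 65.

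**Figure D1:**
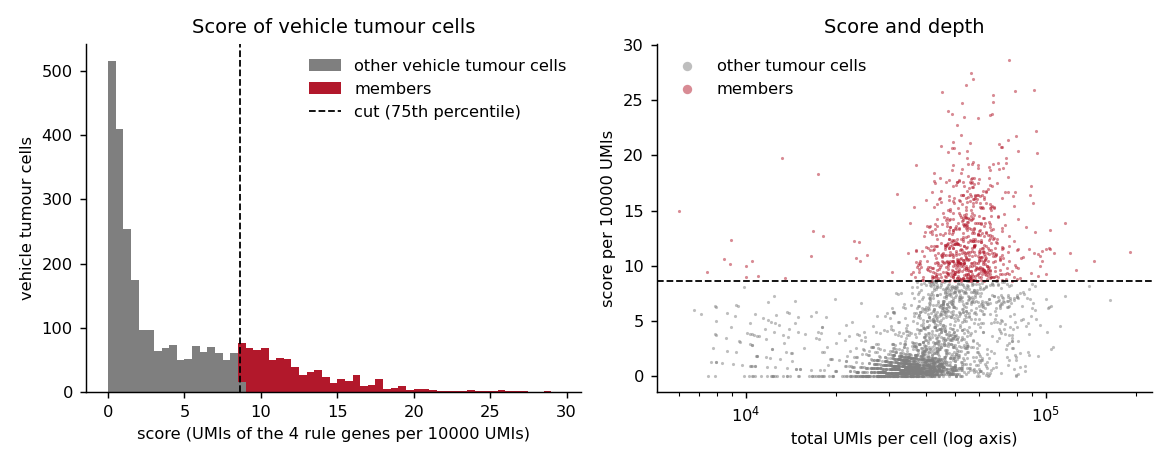
Left, number of vehicle tumour cells by score (UMIs of the 4 rule genes per 10000 UMIs, bins of 0.5), with members in red, the rest in grey and the cut as a dashed line. Right, score against total UMIs per cell (log axis), where members sit toward the deep end, at a median of 54579 UMIs against 38825.

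Members were deeper cells. Their median was 54579 UMIs (lowest 6000, highest 190839), against 38825 (lowest 6712, highest 163409) in the rest, a ratio of 1.41, and a median of 6080 genes was detected against 4991. The share of mitochondrial UMIs was alike, at medians of 5.04% and 5.40%, and ribosomal protein genes took 25.4% against 28.5%. Immunoglobulin genes with Jchain took 10.8% of a member's UMIs and 11.3% of those of a cell of the rest. Doublets were not removed, and of the 150 tumour cells in the top 5% of UMIs, 64 (42.7%) were members. No tumour cell barcode was shared by the libraries, although 8 barcodes of any kind were.

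Markers of the labelled tumour were present. Members held the plasma cell transcripts Jchain (2818 CPM, the UMIs of a gene per 1000000 UMIs summed over the group, against 2865 in the rest), Iglc1, the lambda constant region (60155 against 64821), and Xbp1, the plasma cell transcription factor (378 against 363). Of the 9 J558 markers other than Trap1a, 0 differed by 1.5-fold, the lowest log2 ratio being -0.56 for Mzb1, a chaperone partner of secretory immunoglobulin. The 11 G2/M markers were each at least 2-fold higher in members, with log2 ratios from 1.14 for Ccnb2 to 2.46 for Plk1. The S phase lists given below were also higher, so the cells are called high-score cells or members here, and not cells in G2/M.

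All these cells came from 1 tumour, so cells are not replicates. No p-value is given. The 95% interval of a CPM or a ratio is exact and covers counting error only. That of a list median describes the spread over genes, and that of a share the number of cells or promoters. Because the 4 score genes move with the rest of the cell cycle programme, every ratio between members and the rest describes the same split that chose the cells and is no independent result. A gene entered the comparison with at least 200 UMIs in both groups together, which 10042 genes reached. Of these, 702 (6.99%) were at least 1.5-fold higher in members and 116 (1.16%) at least 1.5-fold lower, and 280 (2.79%) were at least 2-fold higher against 28 (0.279%) lower. The median log2 ratio of all genes was 0.14, and list medians are to be read against it. With ratios centred on that median, 478 genes were higher and 242 lower, so the share of higher genes among those past the fold went from 85.8% to 66.4%.

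The highest ratios belonged to the machinery of mitosis. Plk1, the polo-like kinase that drives mitotic entry and spindle assembly, stood at 57.7 CPM (95% interval 55.5 to 60.1) in members and 10.5 (9.82 to 11.2) in the rest, a log2 ratio of 2.46 (2.35 to 2.57). The median member held 45.5 CPM of Plk1 and the middle 50% of members 19.6 to 81.2, while the median and the upper quartile of the rest were 0. Nusap1, a spindle-associated microtubule binder, followed at 144 against 26.3 CPM, a log2 ratio of 2.46 (2.39 to 2.53). The quartiles of the groups did not overlap for Nusap1, at 73.0 and 191 CPM in members and with an upper quartile of 23.7 in the rest.

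Motors and scaffolds of the spindle made up much of the named set. Aspm, which organises spindle poles, had a log2 ratio of 2.39, Hmmr, a microtubule-associated protein, 2.31, and Kif11, the motor that pushes spindle poles apart, 2.25. Kif4, a chromosome-bound kinesin, reached 2.22 and Kif2c, which takes microtubules apart, 2.12. Cenpe, the kinesin that carries chromosomes along the spindle, was at 143 against 29.8 CPM, a log2 ratio of 2.26 (2.19 to 2.33), and the kinetochore scaffold Knl1 at 2.17. Cit and Anln, of the cleavage furrow, stood at 2.18 and 2.09. These genes all lay more than 4-fold above the rest.

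The other named genes covered the order of mitotic events. Ccna2, the cyclin of S phase and G2, was at 96.0 against 23.3 CPM, a log2 ratio of 2.04 (1.97 to 2.12). Espl1, the protease separase that opens cohesin, had 2.10, and Incenp, the scaffold of the chromosomal passenger complex, 2.03. Ckap2l, a spindle protein, had 2.04, Ccnf, an F-box cyclin, 2.01, Nek2, a centrosomal kinase, 1.99, and Spc25, a subunit of the NDC80 complex, 1.98. Foxm1, the transcription factor of this programme, was at 24.9 against 6.27 CPM, a log2 ratio of 1.99. The 20 genes thus lay between 1.98 and 2.46.

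Taking members at matched depth gave smaller ratios in the same direction. When the top 25% by score was taken within each of 5 bins of total UMIs, 437 of the 748 members (58.4%) were chosen again, 436 genes were at least 1.5-fold higher and 66 lower. The 20 highest genes then had log2 ratios of 1.16 to 1.65, with 20 of 20 past 1.5-fold. Their ratios stayed above 1.5-fold also without the cells in the top 5% of UMIs, at 2.06 to 2.64.

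**Figure D2:**
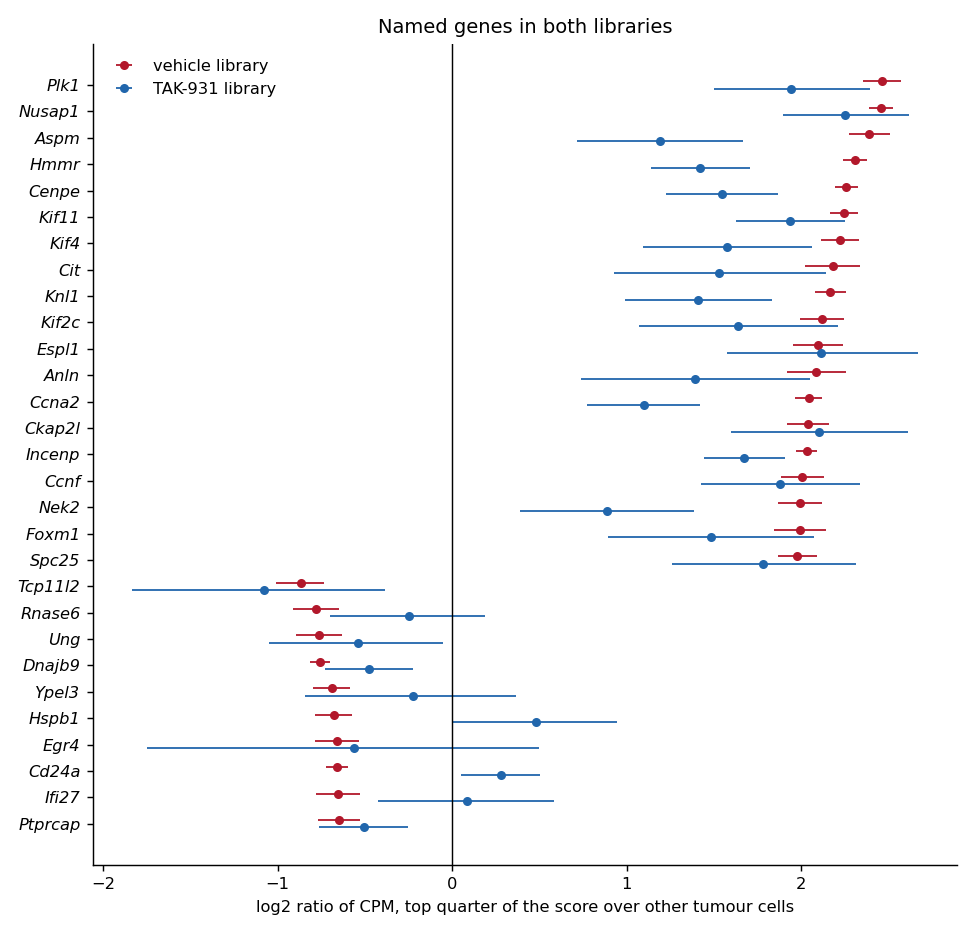
Log2 ratio of CPM between tumour cells in the top 25% of the score and the other tumour cells, for 19 of the 20 highest and the 10 lowest genes by the vehicle ratio, in the vehicle library (red) and in the TAK-931 library (blue), with 95% counting intervals as bars. In the vehicle library the first 19 lie from 1.98 to 2.46 and the last 10 from -0.87 to -0.65, and in the TAK-931 library the first 19 lie from 0.89 to 2.25.

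Detection in single cells was also higher in members after each cell was thinned to 10000 UMIs, which 743 members and 2216 cells of the rest allowed. Nusap1 was then seen in 71.9% of members and 15.7% of the rest, against 97.6% and 29.5% without thinning. Plk1 was seen in 38.9% and 7.99%, against 84.1% and 21.2% without thinning. As a measure of stray RNA, 144 barcodes with no Trap1a UMI and at least 3 UMIs of Csf1r or Cdh5 (median 13028 UMIs before thinning) showed Nusap1 in 3.47% and Plk1 in 2.08%, although such macrophage- or endothelial-marked cells may divide as well. The shares in the rest were above these levels.

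Promoter sequences of the named genes were searched for motifs known from genes of G2 and mitosis. These motifs are CCAAT boxes, bound by NF-Y, and CHR elements (TTTGAA or TTCGAA), bound through MuvB. RefSeq promoters on GRCm38.p6 were found for 16 of the 20 highest genes. Within 200 bases of the start, Nusap1, Cit, Knl1 and Anln held neither motif, and Kif2c held a CHR match alone. Plk1, Aspm, Hmmr, Cenpe, Kif4, Nek2 and Spc25 held CCAAT alone, and 4 genes held both. The last 200 bases before the start are shown for Plk1, which had the highest ratio, at chr7:122159235-122159434 on the plus strand, and for the 4 genes that hold both motifs in this window. These are Kif11 at chr19:37376182-37376381 (plus strand), Espl1 at chr15:102296093-102296292 (plus strand), Ckap2l at chr2:129297213-129297412 (minus strand) and Ccnf at chr17:24251410-24251609 (minus strand). Each is written 5′ to 3′ on the strand of its gene, and capitals mark CCAAT as well as TTTGAA or TTCGAA on either strand, so that ATTGG and TTCAAA are the same motifs read on the opposite strand.
Plk1: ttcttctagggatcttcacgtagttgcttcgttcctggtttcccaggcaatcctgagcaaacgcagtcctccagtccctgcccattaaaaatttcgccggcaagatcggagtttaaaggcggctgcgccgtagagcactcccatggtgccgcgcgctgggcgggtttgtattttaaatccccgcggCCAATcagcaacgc
Kif11: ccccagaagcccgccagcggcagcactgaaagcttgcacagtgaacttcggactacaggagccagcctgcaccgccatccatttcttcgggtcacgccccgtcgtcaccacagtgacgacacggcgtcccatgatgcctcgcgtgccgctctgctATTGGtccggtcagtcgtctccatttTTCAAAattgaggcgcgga
Espl1: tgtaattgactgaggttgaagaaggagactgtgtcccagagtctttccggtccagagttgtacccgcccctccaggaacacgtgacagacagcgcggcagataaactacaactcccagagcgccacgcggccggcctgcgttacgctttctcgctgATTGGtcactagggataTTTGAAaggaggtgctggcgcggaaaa
Ckap2l: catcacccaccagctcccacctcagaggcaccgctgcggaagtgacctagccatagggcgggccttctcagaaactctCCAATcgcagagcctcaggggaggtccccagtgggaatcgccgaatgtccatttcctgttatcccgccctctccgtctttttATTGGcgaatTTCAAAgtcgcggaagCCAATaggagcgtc
Ccnf: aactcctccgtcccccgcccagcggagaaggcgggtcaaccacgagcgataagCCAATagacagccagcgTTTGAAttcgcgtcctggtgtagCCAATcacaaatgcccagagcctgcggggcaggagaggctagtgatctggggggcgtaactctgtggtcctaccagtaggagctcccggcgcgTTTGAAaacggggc

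In Kif11, Espl1 and Ckap2l a CCAAT match stands a short way upstream of a CHR match near the start, and Ccnf holds 2 matches of each. CCAAT was present within 250 bases of the start in 62.6% (56.4 to 68.6, exact binomial interval) of 257 promoters of genes at least 2-fold higher in members, in 36.2% of the promoters of tested genes and in 33.8% of all promoters. TTTGAA or TTCGAA was present in 29.2% (23.7 to 35.2), 12.7% and 17.1%, and both motifs together in 21.8% (16.9 to 27.3), 4.92% and 6.02%. The promoters of genes at least 1.5-fold lower, 93 in number, held CCAAT in 34.4% and both motifs in 6.45%.

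Each list had few promoters, and no difference between lists was tested. TTCCCGC, one form of the E2F site of genes of the G1/S transition (read also as GCGGGAA, and able to share end letters with CCAAT), was found in 30.0% (11.9 to 54.3) of 20 promoters of the helicase and origin list, 21.1% (9.55 to 37.3) of 38 of the DNA synthesis list, 14.8% (4.19 to 33.7) of 27 of the kinetochore list, 6.67% of 15 of the kinase list and 4.17% of 24 of the histone list. It was in 12.5% (8.67 to 17.1) of the 257 promoters of genes at least 2-fold higher, 2.15% of the 93 of lower genes, 7.25% of the promoters of tested genes and 3.82% of all promoters. The spindle list held it in 0 of 32, with an interval up to 10.9% that includes both of these backgrounds. CCAAT was in 68.8% of the spindle promoters, 60.0% of the helicase, 59.3% of the kinetochore, 86.7% of the kinase, 47.4% of the DNA synthesis and 83.3% of the 24 histone promoters. TTTGAA or TTCGAA was in 40.6% of the spindle promoters, 5 of the 20 helicase promoters, 22.2% of the kinetochore, 26.7% of the kinase, 10.5% of the DNA synthesis and 12 of the 24 histone promoters. A match is only a run of letters and was not tested for binding.

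Among the mitotic kinases and cyclins, 22 of 22 genes were at least 1.5-fold higher in members (background 6.99%), with a median log2 ratio of 1.56 (interval of the median over genes 1.05 to 1.96). Below Plk1, Ccna2, Ccnf and Nek2 lay, among others, Ttk, the spindle checkpoint kinase, at 1.97, Aurkb, the kinase of the chromosomal passenger complex, at 1.95, and Aurka, the spindle pole kinase, at 1.82. Ccnb1, the cyclin that activates CDK1 at mitotic entry, stood at 99.5 against 33.1 CPM, a log2 ratio of 1.59 (1.52 to 1.66). The 4 genes under 2-fold were Wee1, the kinase that holds CDK1 inactive, at 0.69 (24.9 against 15.5 CPM), Bub1b, a spindle checkpoint kinase, at 0.89 (102 against 55.2 CPM), Cks1b, a CDK-binding protein, at 0.94, and Plk4, the kinase of centriole duplication, at 0.97.

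Spindle and cytokinesis genes had the highest list median, 1.92 (1.68 to 2.12), with 30 of 30 at least 1.5-fold and also at least 2-fold higher. Besides those named above, Kif14, a cytokinesis kinesin, had 2.40, Tpx2, which activates Aurora A on microtubules, 1.97, and Prc1, which bundles the central spindle, 1.69 at 283 against 87.6 CPM. The lowest was Kif23, a motor of the central spindle, at 1.16.

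Kinetochore and centromere genes followed at a median of 1.52 (1.23 to 1.70), with 30 of 30 at least 1.5-fold higher. Cenpe, Knl1, Incenp, Spc25 and Nuf2 (1.94) were among the higher ones, and Birc5, survivin, was at 208 against 63.7 CPM, a log2 ratio of 1.70. The centromeric histone Cenpa reached 1.21 and its chaperone Hjurp 1.23. Zw10 and Cenpw stood lowest, both at 0.66.

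In chromosome condensation and cohesion, 22 of 23 genes were at least 1.5-fold higher, with a median of 1.23. The 8 condensin subunits ran from 0.73 for Ncaph2 to 1.77 for Ncaph, with Smc4 at 338 against 104 CPM (1.71). The 5 cohesin subunits ran from 0.56 for Smc3 to 1.24 for Rad21, so the ranges of these groups, formed after the values were seen, overlapped. Esco2, which acetylates cohesin in S phase, had 1.77, and Pttg1, securin, 1.17. Hmgb2, a chromatin protein, went from 370 CPM in the rest to 1062 in members.

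Of 17 genes of the anaphase-promoting complex and checkpoint list, 9 were at least 1.5-fold higher, with a median of 0.59. These were 7 of the 7 partner and checkpoint genes and 2 of the 10 core subunits, Anapc15 (0.65) and Cdc27 (0.59), a grouping made after the values were seen. Ube2c, the ubiquitin-conjugating enzyme that serves the complex, was at 372 against 98.6 CPM, a log2 ratio of 1.92 (1.88 to 1.95), and the activator Cdc20 at 132 against 57.4 CPM. The other 8 core subunits ran from -0.20 for Anapc13 to 0.52 for Cdc23. Among tubulin and nuclear envelope genes, 9 of 13 were higher, led by Stmn1, a microtubule destabiliser (1.35), and Tubb5 (1023 against 441 CPM, 1.21), and the tubulins Tuba1a (-0.04), Tubb2a (0.08) and Tubb6 (0.09) were close to equal. Lmnb1, of the B-type lamina, had 1.09 and Lmna, of the A-type lamina, -0.06.

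The list named G2/M transcription factors also held E2F family and retinoblastoma family genes, so its median is not that of G2/M factors alone. It was mixed, 9 of 20 at least 1.5-fold higher (background 6.99%), with a median of 0.42 (0.26 to 1.23). Besides Foxm1 these were E2f8 (1.70) and E2f7 (1.28), repressors of E2F targets, the MuvB subunits Lin9 (1.35) and Lin54 (1.08), Mybl2, which encodes B-MYB (1.23), the p107 gene Rbl1 (1.25), Tfdp2 (0.69) and E2f3 (0.66). The MuvB subunits Lin37 (0.14) and Lin52 (0.19) and the retinoblastoma gene Rb1 (0.11) lay near the median of all genes.

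**Figure D3:**
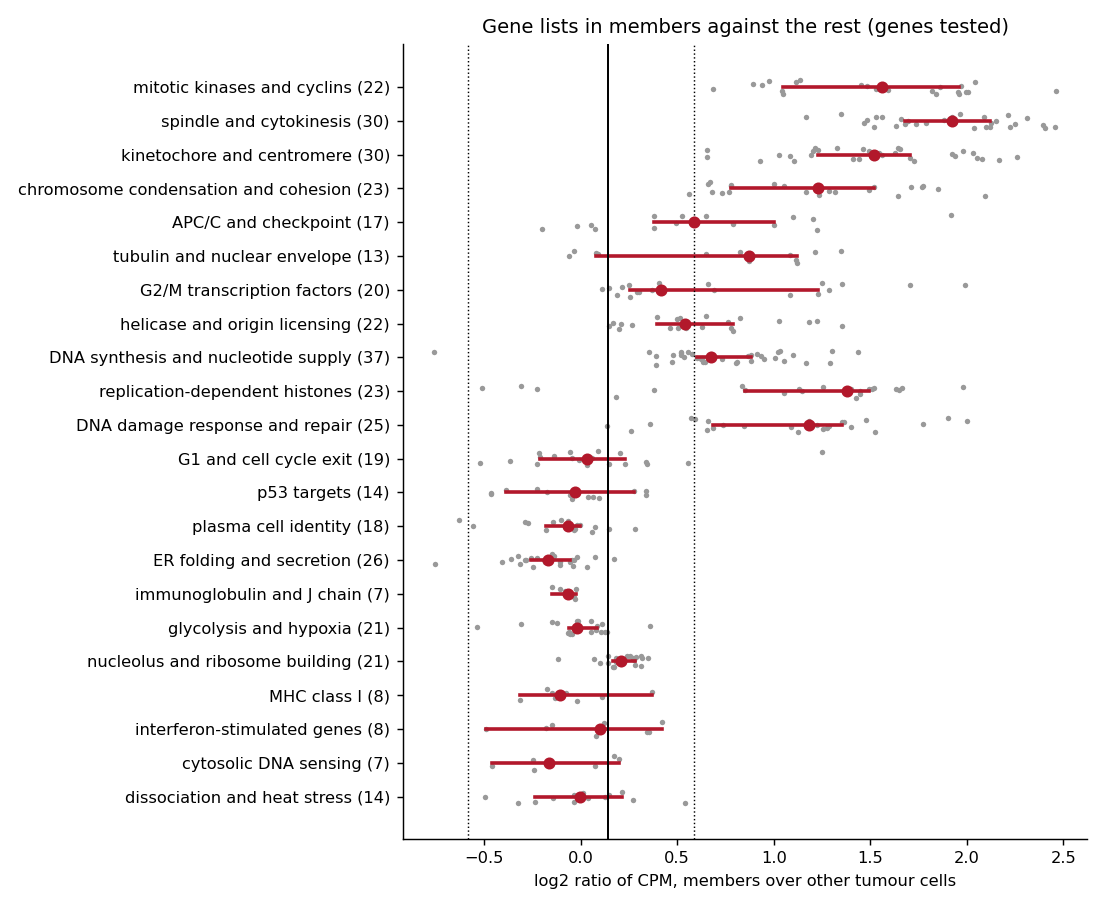
Log2 ratio of CPM, members over the rest, for each tested gene (grey points) of 22 gene lists, with the list median (red point), its 95% order-statistic interval over genes (red line), the median of all genes at 0.14 (solid line) and 1.5-fold in either direction (dotted lines). The first 4 lists, of mitosis, lie from 1.23 to 1.92, and the lists from G1 exit downward lie between -0.17 and 0.21.

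In the DNA synthesis and nucleotide list, 25 of 37 genes were at least 1.5-fold higher and 1 lower, with a median of 0.67 (0.60 to 0.88), below the medians of the first 4 mitotic lists and above that of the anaphase-promoting complex. Tk1, thymidine kinase, had 1.44, the ribonucleotide reductase genes Rrm1 and Rrm2 had 1.29 and 1.17, and Pcna, the sliding clamp, had 0.62 at 230 against 149 CPM. The G1/S cyclin genes Ccne1 (0.35) and Ccne2 (0.52) were under 1.5-fold.

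Helicase and origin genes had a median of 0.54, with 10 of 22 at least 1.5-fold higher. The highest ratios were those of Cdc45, a partner of the active helicase, at 68.2 against 26.7 CPM (1.35), Mcm10 at 1.22 and Dbf4, the activating partner of CDC7, at 79.8 against 35.2 CPM (1.18). Cdc7 itself, the target of TAK-931, was at 8.57 against 5.94 CPM, a log2 ratio of 0.53 (0.33 to 0.72). Of the 6 subunits of the MCM helicase ring, which is loaded in G1, Mcm7 (0.79) and Mcm5 (75.6 against 44.1 CPM, 0.78) were at least 1.5-fold higher. Mcm3 (0.40), Mcm2 (0.27), Mcm6 (0.20) and Mcm4 (0.15) were not. The 4 GINS subunits, which join the ring when an origin fires, ran from 0.46 for Gins4 to 1.03 for Gins3. The licensing inhibitor Gmnn, geminin, had 0.76.

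Replication-dependent histones reached a median of 1.38 (0.85 to 1.49), with 18 of the 23 tested genes of 26 at least 1.5-fold higher. The linker histones Hist1h1b (209 against 67.3 CPM, 1.64) and Hist1h1e (346 against 127 CPM, 1.45) and Hist1h2ap (343 against 126 CPM, 1.45) were among them. Hist1h2bc (-0.51) and Hist1h2ac (-0.22) went the other way. These genes are near-identical copies, so the split of reads between single members of the family is uncertain. Most of their transcripts lack poly(A) tails, which the 3′ chemistry needs.

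Repair genes had a median of 1.18, with 21 of 25 at least 1.5-fold higher. Fancd2, of the interstrand crosslink pathway, stood at 13.4 against 3.34 CPM (2.00), Brca1 at 47.9 against 17.2 (1.48), and Chek1, the S phase checkpoint kinase, at 24.9 against 15.5 (0.68). The apical kinase genes Atr (0.66) and Atm (0.26) were lower in the order.

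Genes of cell cycle exit and p53 targets had list medians near 0, and their counts past 1.5-fold were close to the share over all genes (6.99% higher and 1.16% lower). In the G1 and exit list 1 of 19 tested genes passed 1.5-fold, Cdkn2d, which encodes the CDK4 inhibitor p19INK4d, at 23.4 against 9.86 CPM (1.25), and the median was 0.03. Cdkn1b, which encodes p27, was equal at 23.0 and 23.1 CPM, Ccnd2 at 239 and 247, and Txnip, a gene of low proliferation, stood at 91.2 against 131 (-0.52). Of 14 tested p53 targets, 0 passed the fold in either direction, with a median of -0.03. Cdkn1a, which encodes p21, had 0.34, and Ccng1 and Gadd45a both -0.46.

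The secretory programme was slightly lower per UMI. In the endoplasmic reticulum list 1 of 26 genes was at least 1.5-fold lower (background 1.16%), and the median was -0.17 (-0.26 to -0.06), against 0.14 for all genes. The lower gene was Dnajb9, a co-chaperone of BiP, at 74.95 against 126 CPM, a log2 ratio of -0.75 (-0.81 to -0.70). Hspa5, which encodes BiP, was at 1059 against 1359 CPM (-0.36), Sec61g, of the translocon, at 873 against 1092 (-0.32), and Atf4 was slightly higher at 302 against 268 (0.17). Of 18 plasma cell identity genes 1 was lower, Cd27, a low-count costimulatory receptor (-0.63), and the median was -0.06. The 7 tested immunoglobulin and J chain genes lay between -0.15 and -0.02.

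In the remaining lists no tested gene passed 1.5-fold, which in lists this small is close to the share over all genes (6.99% higher and 1.16% lower). Nucleolar genes had a median of 0.21, with Ncl at 3218 against 2641 CPM (0.29) and Npm1 at 2719 against 2949 (-0.12), and 0 of 21 passed. Glycolysis and hypoxia genes had a median of -0.02 (0 of 21), and dissociation and heat stress genes -0.0035 (0 of 14). MHC class I genes had a median of -0.11 (0 of 8), B2m at 687 against 853 CPM (-0.31). Interferon-stimulated genes had 0.10 (0 of the 8 tested), with Isg15 at -0.49, and cytosolic DNA sensing genes -0.16 (0 of 7), with Tmem173, which encodes STING, at 40.1 against 47.6 CPM (-0.25).

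The 10 lowest named genes were each under 2-fold lower. Tcp11l2 stood at 12.9 against 23.5 CPM (-0.87), Rnase6, a secreted ribonuclease, at 14.7 against 25.2 (-0.78), and Ung, the uracil-DNA glycosylase, at 14.3 against 24.3 (-0.76). Cd24a, a surface glycoprotein, was at 61.9 against 97.8 CPM (-0.66), and its quartiles overlapped, at 18.0 to 88.7 CPM in members around a median of 43.2, with a median of 71.1 in the rest. Ypel3 (-0.69), Hspb1, a small heat shock protein (-0.68), Egr4, a zinc finger transcription factor (-0.66), Ifi27, an interferon-inducible gene (-0.65), and Ptprcap, a CD45-associated protein (-0.65), completed the set with Dnajb9. With members chosen within 5 bins of total UMIs 1 of these 10, Hspb1, stayed past 1.5-fold, and the 10 ranged from -0.86 to -0.20. Ung turned to 0.13 when the upper 50% of cells was taken as members.

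Summed markers of other cell types were low in both groups for most classes, which the choice of tumour cells fixed in part, since it limited the UMIs of Cd3e, Cd3g, Csf1r, Cdh5 and Col1a1. The counting intervals of members lay below those of the rest for 4 of 10 classes (macrophage, dendritic, erythroid and B cell) and overlapped for the other 6. The 8 T cell markers summed to 1.77 CPM in members against 1.95 in the rest, and to 1.48 against 1.77 without the limited genes, with Cd8a, which was not limited, at 0 UMIs in both groups. The 8 macrophage markers summed to 15.1 against 24.2 CPM (14.7 against 24.0 without Csf1r), with Adgre1 at 0 in members, a median cell at 0 in both groups and a highest cell of 186 CPM in members and 5857 in the rest. The 5 erythroid markers summed to 1.17 against 18.5 CPM, and 1 cell of the rest carried 90.9% of the Hbb-bs UMIs there. Dendritic markers summed to 248.5 against 323 CPM, mostly Cd74 (224 against 287), which B-lineage cells also express. The 5 B cell markers summed to 132 against 162 CPM, of which Cd79b made up 113 and 139. Neutrophil markers summed to 2.39 and 2.75 CPM, NK markers to 1.96 and 2.70, fibroblast markers to 1.98 and 2.17 (1.26 and 1.29 without Col1a1), mural markers to 0.978 and 0.881, and endothelial markers to 63.9 and 60.5 (62.0 and 58.6 without Cdh5), of which Pecam1 and Egfl7 were the most. Without the cells that held a macrophage UMI, 725 genes were at least 1.5-fold higher and 88 lower, and without those that held an erythroid UMI 728 and 112.

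The lists were also followed along the score, which orders the cells by genes of the same programme, so that a climb of mitotic lists restates the order and is no independent result. The 2992 cells were cut into 10 equal bins by score, numbered from the lowest, and the levels below are sums of CPM over each list. The DNA synthesis list went from 773 CPM in bin 1 to 2377 in bin 6 and 2714 in bin 7, and then held near that level, at 2854 in bin 10. The helicase list showed the same form, at 522, 1292, 1349 and 1399 CPM in these bins. Rrm2 peaked in bin 8 at 251 CPM and Mcm6 in bin 6 at 180, below the cut.

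The spindle list stood at 127 CPM in bin 1, 743 in bin 6, 1538 in bin 8 and 2429 in bin 10. Plk1 went from 0.495 CPM to 13.5, 41.5 and 70.6 in these bins, and Ccnb1 from 6.34 to 46.3, 83.02 and 113. Histones peaked in bin 8 at 1851 CPM and stood at 1804 in bin 10. The cut at the 75th percentile lay inside bin 8, after the DNA synthesis and helicase lists had levelled.

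Secretory and antigen presentation lists had other shapes. The endoplasmic reticulum list rose from 11583 CPM in bin 1 to 14299 in bin 5, with Hspa5 going from 1340 to 1627, and was at 10678 in bin 10, with Hspa5 at 1036. The MHC class I list was at 3587 CPM in bin 1, at its lowest, 2644, in bin 7 and at 2808 in bin 10. Xbp1 was at 320 CPM in bin 1 and 379 in bin 10. The median UMIs of a cell went along the same bins from 34094 to 55808, and its part in these values was not tested.

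**Figure D4:**
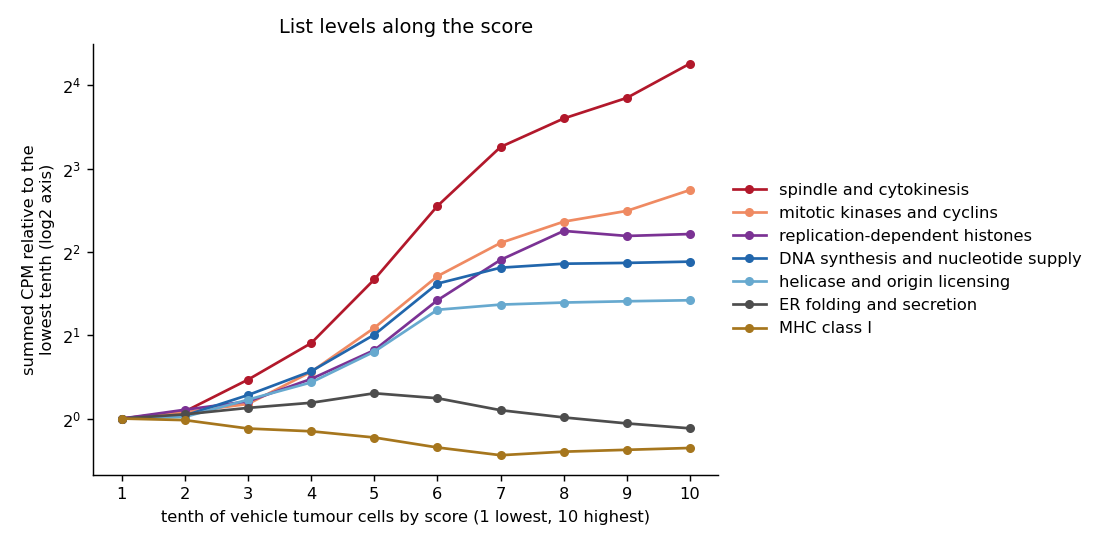
Summed CPM of 7 gene lists in 10 equal bins of vehicle tumour cells ordered by score, each divided by its level in bin 1 (log2 axis). The DNA synthesis and helicase lists (blue) level from bin 7, the histones (purple) from bin 8, mitotic lists (red and orange) climb to bin 10, and the endoplasmic reticulum list (dark grey) peaks in bin 5.

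Members were not uniform in histone transcripts. The contrast was chosen after the data had been seen. The 187 members in the top 25% of summed histone CPM had a median of 2980 CPM and the 187 in the bottom 25% had 703, while their median scores, 11.8 in both, and their median depths, 52125 and 57687 UMIs, were close. Outside the histone genes, 6860 genes had enough UMIs, 98 (1.43%) were at least 1.5-fold higher in histone-high members and 139 (2.03%) in histone-low members, and the median of all genes was -0.01.

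Several S phase genes were higher in histone-high members. Tk1 stood at 36.9 CPM against 15.5 in histone-low members, a log2 ratio of 1.26 (0.99 to 1.53), Tyms, thymidylate synthase, at 100.2 against 46.4 (1.11), and Fbxo5, which encodes the inhibitor EMI1 of the anaphase-promoting complex, at 71.6 against 30.4 (1.23). Lrr1 had 1.35, Ccne1 0.84, Pola1, DNA polymerase alpha, 0.82, Brca1 0.81 and Cdk2 0.80. The 15 highest genes were taken at 20 CPM or more and with no cell over 10% of the UMIs. The others of these were Acot7 (1.02), Pmaip1, which encodes the proapoptotic protein NOXA (0.94), Thop1 (0.83), Fcrla (0.81) and Wdr76 (0.79), besides Dnajb1 and Chac1 given below. Txnip, at 128.5 against 65.1 CPM (0.98), was outside this set, with 15.1% of its UMIs in histone-high members in 1 cell. In the DNA synthesis list 10 of 37 genes were at least 1.5-fold higher (background 1.43%) and 0 lower, with a median of 0.45 (0.33 to 0.56). In the helicase list 4 of 19 were higher, with a median of 0.38 (0.13 to 0.53). Dissociation and heat stress genes lay the same way by a similar amount, 2 of 11 at least 1.5-fold higher (background 1.43%). Their list median was 0.35 (0.15 to 0.66). Past the fold were Dnajb1, a heat shock co-chaperone, at 290 against 151 CPM (0.94), and Ier2, an early response gene, at 0.66. In the endoplasmic reticulum list 3 of 26 genes were higher (background 1.43%), Creld2 (0.72), Ddit3, which encodes CHOP (0.61), and Calr (0.60). The list median was 0.16 (0.06 to 0.29). Stress genes did not all lie this way. Trib3 (9.84 against 25.4 CPM, -1.37), Atf5 (31.8 against 72.0, -1.18) and Sesn2 (-0.71) were lower in histone-high members. The part of these genes in the split was not tested. The highest ratio among genes at 20 CPM or more was that of Chac1, an enzyme that breaks down glutathione, at 75.2 against 26.9 CPM (1.48).

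Several genes of late G2 and mitosis were higher in histone-low members. Cdkn3, a phosphatase that acts on CDKs, was at 46.9 CPM in histone-high and 167 in histone-low members, a log2 ratio of -1.83 (-1.98 to -1.69), and Arl6ip1, a membrane protein that shapes the endoplasmic reticulum, at 138 and 371 (-1.43). Genes outside the cell cycle were among the 15 lowest as well, Trib3 and Atf5 given above, Cox6a2, a subunit of cytochrome oxidase, at 61.2 and 144 CPM (-1.24), Cd69, a lymphocyte activation marker (-1.22), Chac2 (-1.20), Vamp5 (-0.95) and Nxt2 (-0.94). Ube2c was at 271 and 561 CPM (-1.05), Cdc20 at 98.3 and 197, Aurka at 34.8 and 69.4 (-0.99), Plk1 at 45.1 and 84.4 (-0.91), Ccnb2 at 39.1 and 73.4 (-0.91) and Ccnb1 at 77.0 and 142 (-0.89). Of the mitotic kinase list 8 of 22 genes were at least 1.5-fold lower in histone-high members (background 2.03%). The list median was -0.27, with an interval that included 0 (-0.70 to 0.01). Of the spindle list 5 of 30 were lower, with a median of -0.29 (-0.45 to -0.14).

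Other mitotic genes were near equal or went the other way. Kif11 was at 92.8 and 94.1 CPM (-0.02), Aurkb at 87.0 and 81.2 (0.10), Ttk at 19.4 and 19.2 (0.01) and Bub1 at 47.2 and 52.0 (-0.14). Ncapg2, a condensin subunit, was higher in histone-high members at 129 and 83.1 CPM (0.63), and the kinetochore gene Cenph (0.53), the kinesin gene Kif15 (0.49) and the kinase gene Melk (0.38) lay the same way under 1.5-fold. Of the kinetochore list 2 of 30 genes were lower (background 2.03%), Cenpa (-0.93) and Cenpw (-0.67), with a median of -0.11 (-0.27 to 0.07). Of the condensation and cohesion list 1 of 23 was lower, Pttg1 (-0.84), and 1 higher, beside 2.03% and 1.43% over all genes. The list median was -0.02 (-0.14 to 0.16). Of the 8 MHC class I genes 2 were at least 1.5-fold lower in histone-high members (background 2.03%), H2-D1 at 945 against 1494 CPM (-0.66) and H2-K1 at 357 against 562 (-0.65). The list median was -0.40 with an interval that included 0 (-0.66 to 0.10), and Psmb9 (-0.10), Tapbp (-0.02) and Psmb8 (0.10) were close to equal. With members split at the middle of histone CPM, the medians were 0.29 for DNA synthesis and -0.17 for the kinases, and with cells at or above the 90th percentile of the score 0.62 and -0.55.

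**Figure D5:**
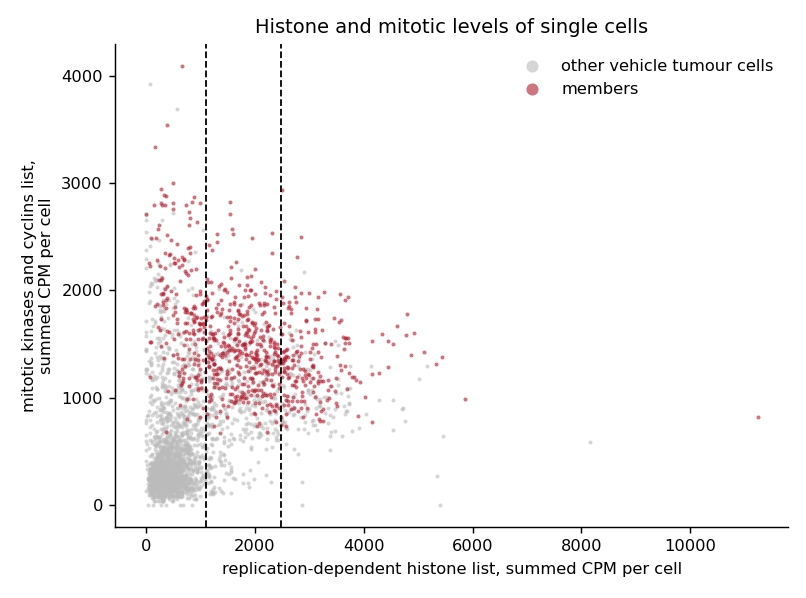
Summed CPM per cell of the replication-dependent histone list (horizontal axis) and of the mitotic kinases and cyclins list (vertical axis) for vehicle tumour cells, with members in red, the rest in grey and the quartile limits of histone CPM among members, 1105 and 2481, as dashed lines. The members with the highest kinase levels sit mostly left of the lower limit.

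The same rule was applied to the TAK-931 library. Its top 25% was chosen by the same 4 genes, so its ratios also describe the split that chose the cells and are no independent result. It left 92 tumour cells, of which 22 (23.9%, 95% exact interval 15.6 to 33.9) reached the vehicle cut. The library's own 75th percentile was 8.16 per 10000, and 23 cells lay at or above it. With 1 library per treatment and few cells, no difference between treatments can be tested. Its tumour cells were deeper, with medians of 81697 UMIs in the top 25% and 60365 in the others.

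Within that library 3517 genes had enough UMIs, 249 (7.08%) were at least 1.5-fold higher in the top 25%, 46 (1.31%) were lower and the median of all genes was 0.09. Without that minimum of UMIs, the 20 highest vehicle genes were each at least 1.5-fold higher, from 0.89 for Nek2 to 2.25 for Nusap1. Plk1 had a log2 ratio of 1.94 and Kif11 of 1.94 (1.63 to 2.25). Espl1 (2.12) and Ckap2l (2.10) were within 0.1 of their vehicle ratios, and Ccna2 was at 1.10 (0.78 to 1.42) against 2.04 in the vehicle library, a difference that was not tested.

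List medians in that library covered fewer genes. The spindle list had 1.33 over 14 tested genes and the kinases and cyclins 0.66 over 10, against 1.92 and 1.56 over more genes in the vehicle library. The DNA synthesis list had 0.75 (0.67 in the vehicle library), the helicase list 0.51 (0.54) and the histones 1.36 (1.38). The sets of tested genes thus differed between the libraries, and these differences were not tested. Of the 10 lowest vehicle genes 7 had a ratio below 0 here and 1 was at least 1.5-fold lower, Tcp11l2 at -1.08 (-1.83 to -0.38).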

How the data were processed

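Raw UMI counts per gene and barcode were deposited by the authors as 1 matrix per allograft, without normalization, from a droplet 3′ v3.1 library counted with Cell Ranger 6.0.0 on mm10 per the submitters' processing notes (the study's methods name a human build, whereas the features are mouse genes). The vehicle library held 144767193 UMIs and the TAK-931 library 77369283. The members and gene lists were chosen with earlier results of these data known. UMIs were summed over members (41907744) and the rest (90801809) and given as CPM. Ratios carry exact conditional binomial intervals, CPM Poisson, shares Clopper-Pearson and list medians order-statistic intervals (95%). Genes were named when among the 20 highest or 10 lowest ratios with no fewer than 200 UMIs, at least 20 CPM in the higher group and no cell over 10% of its UMIs, without the score genes, Trap1a, mitochondrial, ribosomal, haemoglobin, immunoglobulin and unnamed genes, besides the 4 highest and 2 lowest of each list. Other list members were named after their values were seen, and a few genes are not reported here. Of 466 list entries 460 were among the features. Motifs were searched in RefSeq promoters of GRCm38.p6 over 250 bases. Alternatives were other score percentiles and contrasts, cell and gene limits, thinning, other scalings and cells left out. The steps were tested on simulated data. Python 3.11.15, numpy 2.4.6, scipy 1.17.1, pandas 2.3.3 and matplotlib 3.10.9 were used.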

Additional observations from a re-analysis of the deposited data

Results flagged for a closer look

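Vehicle barcodes that met the Trap1a and other-lineage limits but had no more than 2000 genes were left out of the comparisons, and 17 of these 218 (7.80%, exact binomial interval 4.61 to 12.2) reached the score cut, at a median of 4738 UMIs over the 218. They stand out because these barcodes were outside the main measurement.

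Cd24a and Hspb1 had opposite signs in the libraries, with counting intervals that left out 0 in each library. Between the top 25% by score and the other tumour cells, the log2 ratio of Cd24a was -0.66 in the vehicle and 0.28 (counting interval 0.05 to 0.50) in the TAK-931 library, and that of Hspb1 was -0.68 and 0.48 (0.01 to 0.94). The difference was not tested, since each treatment has 1 library.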

How the results depend on the processing

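The cells of 1 tumour give no replicate error, and genes under 200 UMIs could not be ordered. Intervals of CPM and ratios cover counting only, those of list medians the spread over genes, and those of shares the number of cells or promoters. Of the counts of genes past 1.5-fold under the alternatives, 22 stayed within 1.5 times of 702 and 116 and 10 did not. Of the list medians, 314 moved by less than the interval of the median and 38 by more. With members at or above the 90th percentile of the score, the list medians were 1.65 for spindle and cytokinesis, 0.39 for helicase and origin licensing, 0.55 for DNA synthesis and nucleotide supply and 0.019 for plasma cell identity. With the 50th percentile, 183 lower genes were past 1.5-fold, and the list medians were 2.65 for mitotic kinases and cyclins, 3.22 for spindle and cytokinesis, 2.51 for kinetochore and centromere, 1.69 for chromosome condensation and cohesion, 1.27 for helicase and origin licensing, 1.35 for DNA synthesis and nucleotide supply, 2.24 for replication-dependent histones and 2.08 for DNA damage response and repair. Against the lowest 25% of cells, 1466 higher genes and 204 lower genes were past 1.5-fold, and the list medians were 3.67 for mitotic kinases and cyclins, 4.50 for spindle and cytokinesis, 3.62 for kinetochore and centromere, 2.36 for chromosome condensation and cohesion, 1.05 for APC/C and checkpoint, 1.29 for tubulin and nuclear envelope, 1.70 for helicase and origin licensing, 1.76 for DNA synthesis and nucleotide supply, 2.87 for replication-dependent histones, 2.99 for DNA damage response and repair and -0.056 for ER folding and secretion. With members chosen within 5 bins of total UMIs, 436 higher genes and 66 lower genes were past 1.5-fold, and the list medians were 0.93 for mitotic kinases and cyclins, 1.26 for spindle and cytokinesis, 1.08 for kinetochore and centromere and 0.15 for nucleolus and ribosome building. After thinning to 10000 UMIs, 54 lower genes were past 1.5-fold, and the list medians were 1.76 for kinetochore and centromere, 0.91 for DNA synthesis and nucleotide supply and 1.56 for replication-dependent histones. With the mean of each cell's CPM, the list median was 1.54 for replication-dependent histones. Centred on the median of all genes, 242 lower genes were past 1.5-fold, and the list medians were 0.40 for helicase and origin licensing, 0.53 for DNA synthesis and nucleotide supply, -0.20 for plasma cell identity, -0.31 for ER folding and secretion, -0.21 for immunoglobulin and J chain, -0.16 for glycolysis and hypoxia and 0.069 for nucleolus and ribosome building. With a gene minimum of 50 UMIs, 369 lower genes were past 1.5-fold. With a gene minimum of 1000 UMIs, 461 higher genes and 28 lower genes were past 1.5-fold. These minimums, thinning and the contrast with the lowest 25% of cells (9118 genes) changed the number of genes tested from 10042. Their counts thus do not have the same base as 702 and 116. The log2 ratio of Ung turned from -0.76 to 0.13 with the 50th percentile. The cause of these shifts was not tested. Among the other named ratios 262 stayed inside their intervals and 217 did not, in the same direction. Removing cells with macrophage or erythroid UMIs, and the histone comparison with its alternatives, were added after the data were seen. No paired analysis was possible because each group has 1 library and no result comes from a test.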
